A study of Mus musculus with 20 samples.

Results

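The genes described here encode the enzymes that keep thiol groups and glutathione reduced in the cell, and the proteins that supply or control them. They are 47 genes in 8 role groups: glutathione peroxidases, peroxiredoxins with their repair enzyme sulfiredoxin, the thioredoxin system, glutaredoxins, glutathione synthesis and recycling, the transcription factor Nrf2 with its inhibitor and 3 haem and quinone enzymes, the NADPH source of the pentose phosphate pathway, and glutathione transferases. A gene was taken where its symbol stood in the symbol field of a row of the table, and all 47 of 47 were found, among 19746 named genes. Each had 1 row, and 1 of them, Gclm, had a row that it shares with the pseudogene Gm6061.

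Peroxides made in a cell are reduced by peroxidases, which pass the oxidation on to glutathione or thioredoxin. Both carriers are then reduced again with electrons from NADPH, by glutathione reductase and the thioredoxin reductases, and glutathione itself is built from cysteine, glutamate and glycine. The transcription factor Nrf2, encoded by Nfe2l2, switches on many of these genes when its inhibitor Keap1 is modified by oxidants or electrophiles. In skin, these systems meet peroxides from mitochondria, from ultraviolet light and from the cornifying epidermis.

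RNA of whole skin of C57BL/6 mice, an inbred strain, was sequenced after depletion of ribosomal RNA, in 20 samples of 6 groups. The groups were wild-type control skin (Sod2+/+) at 700 days (n = 4) and at 50 days (n = 5), Sod2 conditional knockout skin (cKO, Sod2-/-) at 300 days (n = 3) with control skin (Sod2+/+) at 300 days (n = 3), and cKO skin at 100 days (n = 3) with control skin at 100 days (n = 2). Sod2 encodes the superoxide dismutase of mitochondria, which turns superoxide into hydrogen peroxide. The labels do not say which promoter drove the deletion or in which cells of the skin Sod2 was lost, and they give 2 ribosomal depletion kits without saying which sample had which. The 50- and 700-day samples carry another title prefix than the 100- and 300-day samples, so ratios were taken only within a prefix.

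The values were FPKM, in which the fragments of a gene are divided by its length and by the size of the library, with 1 value per gene and group. With 1 value per group, the values below carry neither an error nor a test, and read depth is unknown. Genes were counted as higher or lower from a log2 ratio of (FPKM + 1) of 1 upwards in size, a fold of at least 2 on that scale, which understates the fold of low genes. All 47 members were among the 12561 named genes that averaged 1 FPKM or more and were so counted. Sod2 itself stood at 16.8 FPKM in cKO skin and 23.5 FPKM in the controls at 300 days, and at 17.6 FPKM in cKO skin and 27.7 FPKM in the controls at 100 days. It was lower in the skin labelled cKO at both ages, by a log2 ratio of -0.46 at 300 days and -0.63 at 100 days, and was not counted as lower at either.

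Whole skin holds many cell types, and fewer cells of a type and less RNA per cell cannot be told apart in these values. The label of skin was checked on 8 basal keratinocyte markers, which summed to between 1654 and 6315 FPKM in the 6 groups. Of 14 adipocyte markers, 10 were counted as lower in 700-day against 50-day controls (summed FPKM 331 against 1153), 11 in cKO against control skin at 300 days (2889 against 6024) and all 14 at 100 days (2629 against 8265), and none was listed at 0. All 13 skeletal muscle markers found were counted as lower at 700 days (99.2 against 4127 FPKM at 50 days), but in cKO against control skin none was at 300 days (20554 against 18083) and 3 were at 100 days (13978 against 21070). Macrophage markers were counted as lower in 5 of 10 at 700 days (59.2 against 127 FPKM), in 6 of 10 in cKO skin at 300 days (168 against 411) and in 1 of 10 at 100 days (140 against 180). All 10 lymphocyte markers were counted as lower in cKO against control skin at 300 days (23.1 against 396 FPKM), and Cd79b and Ms4a1 are among those listed at 0 in some group. Markers of simple and glandular epithelium were counted as lower in 6, 8 and 8 of 10 genes, with 72.7 against 108 FPKM at 700 against 50 days, 38.2 against 157 in cKO against control skin at 300 days and 48.0 against 479 at 100 days. Stress keratinocyte markers, which include Krt6a, Krt16 and S100a8, were counted as higher in 5, 7 and 4 of 9 genes in the same comparisons. Of 12 hair shaft and root sheath markers, 5 were counted as lower at 700 days (492 against 788 FPKM), while in cKO against control skin 5 were counted as higher at 300 days (3165 against 2635) and 8 at 100 days (5839 against 1848). Of 10 fibroblast markers, 2 were counted as lower at 700 days (1054 against 1717 FPKM), 2 as higher in cKO skin at 300 days (4300 against 2723) and 4 as lower at 100 days (1644 against 3038). Of 11 differentiated keratinocyte markers, 3 were counted as higher at 700 days (5424 against 3824 FPKM), 4 in cKO skin at 300 days (2197 against 1229) and none at 100 days (1225 against 1379). Y-linked transcripts were at least 14.7 FPKM in the 700-day control and both cKO groups and at most 0.347 FPKM in the other groups. The sex-linked Xist went the other way, at 3.69 FPKM in 700-day controls against 2580 FPKM at 50 days. It had 17.2 FPKM in cKO skin and 2187 FPKM in the controls at 300 days, and 4.92 and 1141 FPKM at 100 days. A difference of sex thus cannot be told apart from age or genotype in any of these comparisons. The part of the cell types above in the results below was not tested.

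The promoters of the members were read from RefSeq (build GRCm38.p6, 250 bases before to 50 bases after each start), because the antioxidant response element is the sequence through which Nrf2 acts. RefSeq held 56 promoters for 42 of the 47 members, and Gsta4, Hmox1, Gsr, Gclc and Prdx6 were not searched. The core of the element, TGACNNNGC on either strand, was in the promoter of 10 of 42 member genes (23.8%), against 3781 of 27025 genes in the whole table (14%), and in 10 of 56 member promoters (17.9%), against 12.4% of all 32851 promoters. The AP-1 motif TGANTCA, which can overlap the element, was in 6 of 42 member genes (14.3%), against 8.97% of all genes. These are letters in a window, not sites shown to be bound. The 10 windows with the core follow, each 29 bases long, read 5′ to 3′ on the strand of its gene, with the match in capitals.
G6pdx (chrX:74428919-74428947, minus strand): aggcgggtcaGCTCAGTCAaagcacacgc
Gclm (chr3:122245413-122245441, plus strand): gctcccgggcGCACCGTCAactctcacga
Gsta3 (chr1:21240454-21240482, plus strand): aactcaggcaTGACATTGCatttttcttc
Gstm5 (chr3:107895802-107895830, plus strand): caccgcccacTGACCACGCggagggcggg
Mgst1 (chr6:138140461-138140489, plus strand): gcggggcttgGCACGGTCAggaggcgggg
Nfe2l2 (chr2:75704885-75704913, minus strand): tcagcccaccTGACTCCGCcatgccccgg
Pgd (chr4:149166061-149166089, minus strand): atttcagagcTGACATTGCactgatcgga
Prdx1 (chr4:116685456-116685484, plus strand): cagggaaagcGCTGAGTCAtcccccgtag
Srxn1 (chr2:152105542-152105570, plus strand): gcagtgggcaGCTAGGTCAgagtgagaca
Txnrd1 (chr10:82859104-82859132, plus strand): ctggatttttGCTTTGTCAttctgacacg
In 4 of the 10 windows the core lies on the strand of the gene, and in the others it reads as its reverse complement. The match lies 42 to 240 bases before the RefSeq start in 8 genes, and 3 bases after it in Pgd and 28 bases after it in Srxn1. The windows cover enzymes of several roles: NADPH supply (G6pdx, Pgd), glutathione synthesis (Gclm), conjugation (Gsta3, Gstm5, Mgst1), peroxide removal and repair (Prdx1, Srxn1), thioredoxin reduction (Txnrd1) and Nrf2 itself (Nfe2l2). Only the Prdx1 window also overlaps a TGANTCA match. Srxn1 had 2 further TGANTCA matches, in capitals in its 250 upstream bases. The same stretch is given for Gpx3 and Gstm2, the members counted as lower in cKO skin at both ages. These held neither motif, while Pgd, counted as lower in cKO skin at 100 days, carries the core. The Gpx3 stretch lies inside the span that GENCODE gives the gene (from chr11:54902453), so the bases before that start were not searched. Likewise, the windows of G6pdx, Mgst1, Pgd, Srxn1 and Txnrd1 lie inside the GENCODE span of their gene, and that of Gstm5 does in part. For Txnrd1 this span starts at chr10:82833951.
Gpx3 (chr11:54902604-54902853, plus strand): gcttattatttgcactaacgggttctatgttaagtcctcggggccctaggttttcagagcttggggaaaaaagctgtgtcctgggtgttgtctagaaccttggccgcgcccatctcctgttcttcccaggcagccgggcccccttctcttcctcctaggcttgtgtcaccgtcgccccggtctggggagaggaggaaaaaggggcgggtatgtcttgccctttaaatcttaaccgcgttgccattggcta
Gstm2 (chr3:107986421-107986670, minus strand): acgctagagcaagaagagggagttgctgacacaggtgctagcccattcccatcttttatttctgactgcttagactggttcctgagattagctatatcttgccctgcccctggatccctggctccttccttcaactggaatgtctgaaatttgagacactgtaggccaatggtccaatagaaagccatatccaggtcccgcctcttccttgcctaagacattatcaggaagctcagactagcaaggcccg
Srxn1 (chr2:152105274-152105523, plus strand): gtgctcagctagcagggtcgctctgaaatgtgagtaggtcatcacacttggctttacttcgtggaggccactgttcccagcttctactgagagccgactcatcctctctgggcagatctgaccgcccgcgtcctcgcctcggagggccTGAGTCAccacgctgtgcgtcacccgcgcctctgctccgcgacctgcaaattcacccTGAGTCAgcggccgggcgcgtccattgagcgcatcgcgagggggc

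The most abundant member was Txnip, with a mean of 711 FPKM over the 6 groups and rank 54 of 12561 genes. Prdx2 (186 FPKM), Mgst1 (181), Prdx1 (144), Prdx5 (143) and Gpx1 (131) were the others with a mean of at least 100 FPKM, so that 2-cysteine peroxiredoxins, a membrane-bound glutathione transferase and the main cytosolic glutathione peroxidase led the module. At the other end, 15 members averaged under 10 FPKM. Slc7a11, the cystine carrier, was the only member under 1 FPKM in any group, and no member was listed at 0.

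In 700-day against 50-day control skin, few members differed by the size counted. The membrane transferase Mgst2 was the 1 member counted as higher, which 0.605% of all genes were, and the peroxidases Gpx3 and Gpx7 were the 2 counted as lower, which 3.29% of all genes were. The median log2 ratio of the 47 members was -0.09, against -0.03 over all genes, and 27 of 47 were below 0 (57.4%, against 55.2% of all genes). With values rescaled to equal totals (TPM) the member median was 0.01 and 23 of 47 were below 0, so the sign of the module as a whole depended on the scaling.

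In cKO against control skin the members were more often below 0 than the genes at large. At 300 days no member was counted as higher (1.93% of all genes were) and 3 were counted as lower, Gpx3, Gstm2 and Gstp1 (5.22% of all genes were). At 100 days no member was counted as higher (2.21% of all genes) and 5 were counted as lower, Gpx3, Gstm2, Gsta4, Pgd and Txnrd2 (4.36% of all genes). The median log2 ratio was -0.23 at 300 days, against -0.01 over all genes, and -0.22 at 100 days, against 0.02 over all genes. At each age 34 of 47 members were below 0 (72.3%), against 51.3% of all genes at 300 days and 48.2% at 100 days. These age points share no group, but sex-linked transcripts differ in the same direction at both. Of the members, 29 were below 0 at both, 8 were above 0 at both, and the 2 counted as lower at both were Gpx3 and Gstm2. The shares of all genes that did so at both ages were not counted, so these overlaps have no background. Under the other scalings 31 to 35 members were below 0 at 300 days and 34 to 36 at 100 days, while TPM moved the median of all genes at 100 days to -0.10 and that of the members to -0.35.

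**Figure D1:**
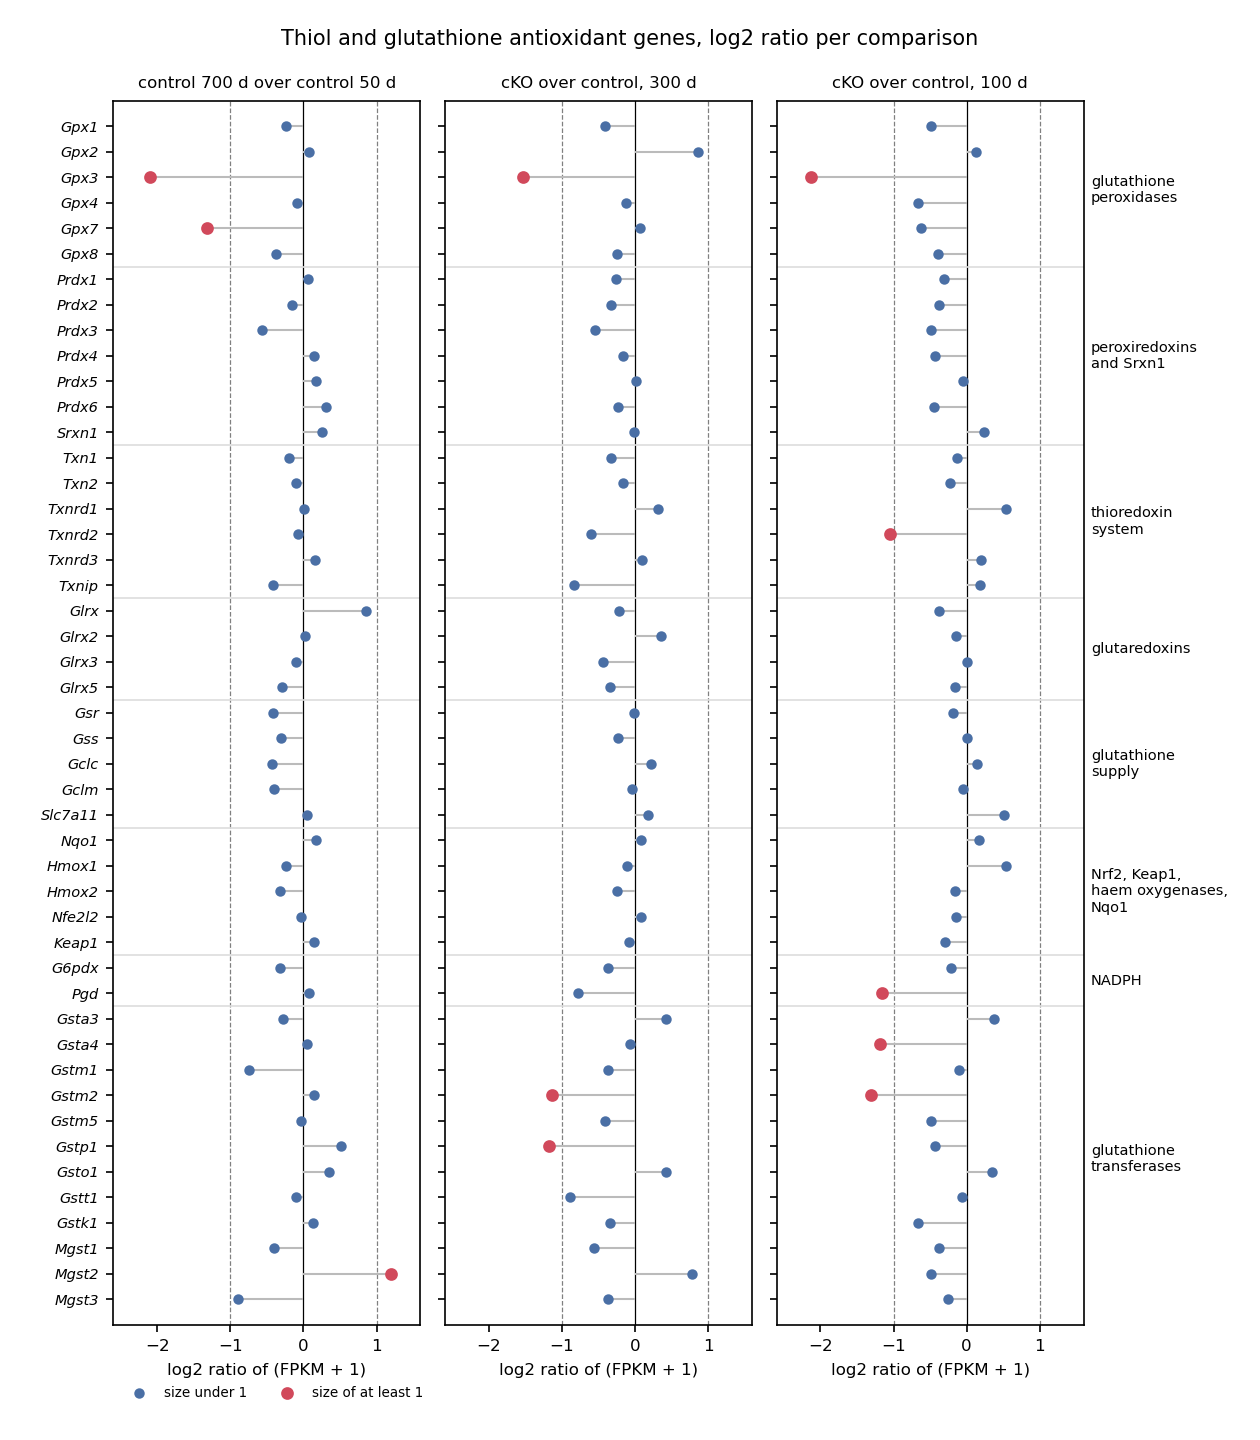
Log2 ratios of (FPKM + 1) for the 47 members, grouped by role, in 700-day over 50-day controls (left), cKO over control skin at 300 days (middle) and at 100 days (right). Each point is 1 gene with 1 value per group, dashed lines mark a size of 1, and red points reach it: Gpx3 does in all 3 panels, at -2.10, -1.54 and -2.13.

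Among the glutathione peroxidases, Gpx3, the enzyme secreted into plasma and extracellular fluid, was counted as lower in each of the first 3 comparisons. Gpx3 (chr11:54902453-54910377, plus strand, GRCm38, with no other gene overlapping it) stood at 5.96 FPKM in 700-day controls against 28.8 FPKM in 50-day controls, a log2 ratio of -2.10. At 300 days it stood at 51.8 FPKM in cKO skin and 152 FPKM in the controls (log2 ratio -1.54). At 100 days it stood at 50.1 FPKM in cKO skin and 223 FPKM in the controls (log2 ratio -2.13). Counted from the lowest ratio of 12561 genes, Gpx3 ranked 116 at 700 against 50 days, 267 in cKO skin at 300 days and 62 in cKO skin at 100 days. Its log2 ratio ranged between -2.26 and -2.05, between -1.56 and -1.49 and between -2.27 and -2.11 under the alternatives in the same order. Beside it, 10, 11 and 14 of the 14 adipocyte markers were counted as lower in the same comparisons. So were 6, 8 and 8 of the 10 markers of simple and glandular epithelium, with the sums given above. The part of either cell type in the Gpx3 values was not tested.

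Of the other peroxidases only Gpx7 was counted, and only at 700 days. Gpx7, an enzyme of the endoplasmic reticulum tied to oxidative protein folding, stood at 1.15 FPKM in 700-day controls and 4.35 FPKM in 50-day controls (log2 ratio -1.31). In cKO and control skin Gpx7 had 4.68 and 4.43 FPKM at 300 days, and 3.01 and 5.17 FPKM at 100 days, and was counted at neither. Gpx1, which reduces hydrogen peroxide in cytosol and mitochondria, had 108 FPKM in cKO against 143 FPKM in the controls at 300 days and 98.3 against 139 FPKM at 100 days. It was also lower at 700 days (136 FPKM) than at 50 days (161 FPKM), without being counted in any of them. Gpx4, which reduces lipid peroxides in membranes and protects from ferroptosis, had 82.9 FPKM in cKO skin and 132 FPKM in the controls at 100 days (log2 ratio -0.66), against log2 ratios of -0.12 in cKO skin at 300 days and -0.09 at 700 days. A run of 75 bases of Gpx4 can also come from its pseudogene Gpx4-ps2 in 29.8% of positions. Gpx2, an enzyme of epithelia, had the highest log2 ratio of any member in cKO skin at 300 days, with 4.05 FPKM in cKO skin and 1.78 FPKM in the controls (log2 ratio 0.86). It had 2.03 and 1.76 FPKM in cKO skin and the controls at 100 days, and 3.42 and 3.21 FPKM in 700- and 50-day controls. Gpx8, another enzyme of the endoplasmic reticulum, had log2 ratios of -0.38, -0.25 and -0.39 in the same order of comparisons.

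The make-up of the peroxidase family differed between the groups. The 6 peroxidases summed to 271 FPKM in cKO skin and 416 FPKM in the controls at 300 days, and to 247 FPKM in cKO skin and 515 FPKM in the controls at 100 days. Gpx3 made up 19.1% of the sum in cKO skin and 36.6% in the controls at 300 days, and 20.3% in cKO skin and 43.4% in the controls at 100 days. In 700-day controls the sum was 198 FPKM with 3.01% from Gpx3, and in 50-day controls 254 FPKM with 11.4%. Gpx1 took the largest share in 4 of the 6 groups, from 39.7% to 68.9%, and Gpx3 did in the 300- and 100-day controls.

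**Figure D2:**
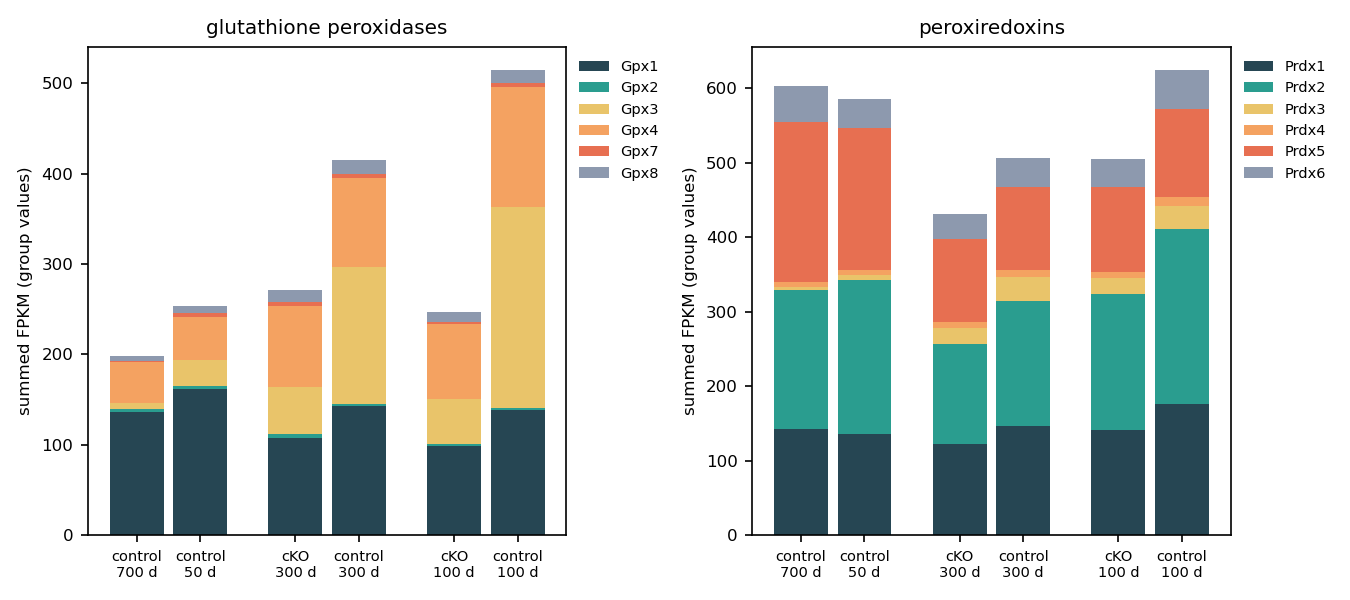
Summed FPKM of the 6 glutathione peroxidases (left) and the 6 peroxiredoxins (right) in each group, split by gene; each bar is 1 group value. The peroxidase bar of cKO skin is 247 FPKM against 515 FPKM for control skin at 100 days, most of the gap being the Gpx3 part, while the peroxiredoxin bars lie between 431 and 624 FPKM.

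Of the peroxiredoxins and sulfiredoxin, none was counted in any of the first 3 comparisons. Most lay slightly below 0 in cKO skin: 6 of 7 at each age, with medians of -0.23 at 300 days and -0.37 at 100 days. Prdx2, a cytosolic peroxiredoxin, had 134 FPKM in cKO skin and 169 FPKM in the controls at 300 days, and 182 and 235 FPKM at 100 days. In 700- and 50-day controls it had 186 and 207 FPKM, and its gene overlaps Junb and Rnaseh2a on the opposite strand. Prdx1, its cytosolic relative, had 122 and 146 FPKM in cKO skin and the controls at 300 days, 142 and 175 FPKM at 100 days, while 700- and 50-day controls had 142 and 135 FPKM. The mitochondrial Prdx3 had 21.1 FPKM in cKO skin and 31.3 FPKM in the controls at 300 days (log2 ratio -0.54), and 21.4 and 30.5 FPKM at 100 days (-0.49). Its log2 ratio was the lowest of the peroxiredoxins at 700 days too, with 4.31 FPKM against 6.86 FPKM at 50 days (-0.56).

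The remaining peroxiredoxins were not counted in these comparisons either. Prdx5, found in mitochondria, peroxisomes and cytosol, had 111 and 111 FPKM in cKO skin and the controls at 300 days, 114 and 119 FPKM at 100 days, and 215 and 191 FPKM in 700- and 50-day controls. Its log2 ratios of 0.01 and -0.06 in cKO skin were the nearest to 0 of the peroxiredoxins, and 13.9% of its 75-base positions also lie in Trmt112. Prdx6, which uses glutathione and also acts on phospholipids, had 48.4 FPKM at 700 days against 38.8 FPKM at 50 days, while cKO and control skin had 33.3 and 39.1 FPKM at 300 days and 37.6 and 51.7 FPKM at 100 days. Prdx4, the peroxiredoxin of the endoplasmic reticulum, whose gene is on the X chromosome, had log2 ratios of 0.14, -0.17 and -0.43 at 700 days and in cKO skin at 300 and 100 days. Sulfiredoxin (Srxn1), which repairs overoxidised peroxiredoxins, had 8.30 FPKM in cKO skin and 8.39 FPKM in the controls at 300 days, and 9.23 and 7.68 FPKM at 100 days. Its ratio at 300 days, -0.01, changed sign with the scaling.

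In the thioredoxin system the mitochondrial and the cytosolic reductase stood on opposite sides of 0 in cKO skin. Txnrd2, the mitochondrial reductase, had 5.51 FPKM in cKO skin and 12.4 FPKM in the controls at 100 days (log2 ratio -1.05, counted as lower), and 6.97 and 11.1 FPKM at 300 days (-0.61). Txnrd1, the cytosolic reductase and a known Nrf2 target, had 29.0 FPKM in cKO skin and 19.6 FPKM in the controls at 100 days (0.54, the highest ratio of any member there), and 22.7 and 18.1 FPKM at 300 days (0.31). Neither differed much between 700- and 50-day controls, with 5.19 and 5.49 FPKM for Txnrd2 and 25.4 and 25.3 FPKM for Txnrd1. The thioredoxins they reduce, cytosolic Txn1 and mitochondrial Txn2, had log2 ratios of -0.32 and -0.17 in cKO skin at 300 days and -0.13 and -0.23 at 100 days. Txnrd3, a reductase best known from testis, stayed between 3.18 and 4.37 FPKM in the 6 groups.

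Txnip, which binds thioredoxin and limits glucose uptake, was on opposite sides of its controls at the 2 ages in cKO skin. It had 369 FPKM in cKO skin and 662 FPKM in the controls at 300 days (log2 ratio -0.84), but 874 FPKM in cKO skin and 771 FPKM in the controls at 100 days (0.18). In 700- and 50-day controls it had 682 and 908 FPKM (-0.41). The lowest of its 6 values was that of 300-day cKO skin and the highest that of 50-day controls. The antisense transcript Gm15441 covers 13.8% of its 75-base positions.

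Of the glutaredoxins, which reduce protein disulfides with glutathione, none was counted. Glrx, the cytosolic enzyme, had 11.9 FPKM in 700-day controls and 6.13 FPKM in 50-day controls (log2 ratio 0.86, and 1.00 with TPM, which would count it as higher). In cKO and control skin it had 8.69 and 10.3 FPKM at 300 days and 5.57 and 7.51 FPKM at 100 days. Glrx2, the mitochondrial form, had 44.7 FPKM in cKO skin and 34.7 FPKM in the controls at 300 days, 38.5 and 42.5 FPKM at 100 days, and 46.8 and 46.2 FPKM in 700- and 50-day controls. Glrx3 and Glrx5, which handle iron-sulfur clusters, had log2 ratios of -0.44 and -0.34 in cKO skin at 300 days, 0.00 and -0.16 at 100 days, and -0.10 and -0.29 at 700 days. The pseudogene Gm12669 holds 12.1% of the 75-base positions of Glrx3.

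The genes of glutathione supply were not counted in cKO skin at either age. Their 5 log2 ratios ran from -0.24 to 0.22 at 300 days (median -0.02) and from -0.18 to 0.51 at 100 days (median 0.00). Slc7a11, which imports the cystine for glutathione, had 5.14 FPKM in cKO skin and 3.32 FPKM in the controls at 100 days (log2 ratio 0.51), and 4.71 and 4.05 FPKM at 300 days (0.18). It had 0.437 FPKM in 700-day controls and 0.384 FPKM in 50-day controls. Gclc, the catalytic subunit of the rate-limiting enzyme of glutathione synthesis, had 17.7 and 15.1 FPKM in cKO skin and the controls at 300 days and 22.5 and 20.4 FPKM at 100 days. Its partner subunit Gclm, in a row shared with Gm6061, had 26.9 and 27.7 FPKM at 300 days and 37.3 and 38.7 FPKM at 100 days in cKO and control skin. At 700 against 50 days, 4 of the 5 were below 0: Gclc (-0.43), Gsr, which reduces oxidised glutathione (-0.42), Gclm (-0.40) and Gss, which adds the glycine (-0.31). Their median was -0.40, against -0.03 over all genes.

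Nrf2 itself and 8 members chosen as known targets (Nqo1, Hmox1, Srxn1, Txnrd1, Gclc, Gclm, Slc7a11 and Gsr) were not counted in any of the 6 comparisons. The 8 are a selection, and G6pdx, Gsta3, Gstm5, Mgst1, Pgd and Prdx1, which carry the core element, are not among them. Of those left out, G6pdx, Gstm5, Mgst1, Pgd and Prdx1 lay below 0 in cKO against control skin at both ages. Gsta3 lay above 0 at both. Pgd was counted as lower in cKO skin at 100 days (-1.15), and Gsta3 in control skin at 300 against 100 days (-1.04). The log2 ratios of the 8 targets ran from -0.12 to 0.31 in cKO against control skin at 300 days, with 4 above 0, and from -0.18 to 0.54 at 100 days, with 6 above 0. At 700 against 50 days they ran from -0.43 to 0.25, with 4 above 0. Of all genes, 51.3% were below 0 in cKO against control skin at 300 days, 48.2% at 100 days and 55.2% at 700 against 50 days. In cKO skin at 300 against 100 days all 8 were below 0, from -0.45 to -0.11. So were 68.1% of the 47 members and 47.3% of all genes. Nfe2l2, which encodes Nrf2, had 28.3 FPKM in cKO skin and 26.8 FPKM in the controls at 300 days, and 22.8 and 25.3 FPKM at 100 days. Keap1, its inhibitor, had 11.1 and 11.8 FPKM in cKO skin and the controls at 300 days and 9.03 and 11.3 FPKM at 100 days. Hmox1, the inducible haem oxygenase, had 24.0 FPKM in cKO skin and 16.1 FPKM in the controls at 100 days (log2 ratio 0.54). At 300 days it had 20.9 FPKM in cKO skin and 22.8 FPKM in the controls (-0.12), and 700- and 50-day controls had 30.6 and 36.3 FPKM. Nqo1, the quinone reductase often used to read out Nrf2 activity, stayed between 2.97 and 3.82 FPKM in the 6 groups. Hmox2, the constitutive haem oxygenase, had log2 ratios of -0.32, -0.25 and -0.16 at 700 days and in cKO skin at 300 and 100 days. Its value is uncertain, because 36.8% of its 75-base positions also occur in other genes, mainly Cdip1, which overlaps it on the opposite strand. Of the 6 of these 9 genes with a promoter in RefSeq, Gclm, Nfe2l2, Srxn1 and Txnrd1 carry the core element in the windows printed above.

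**Figure D3:**
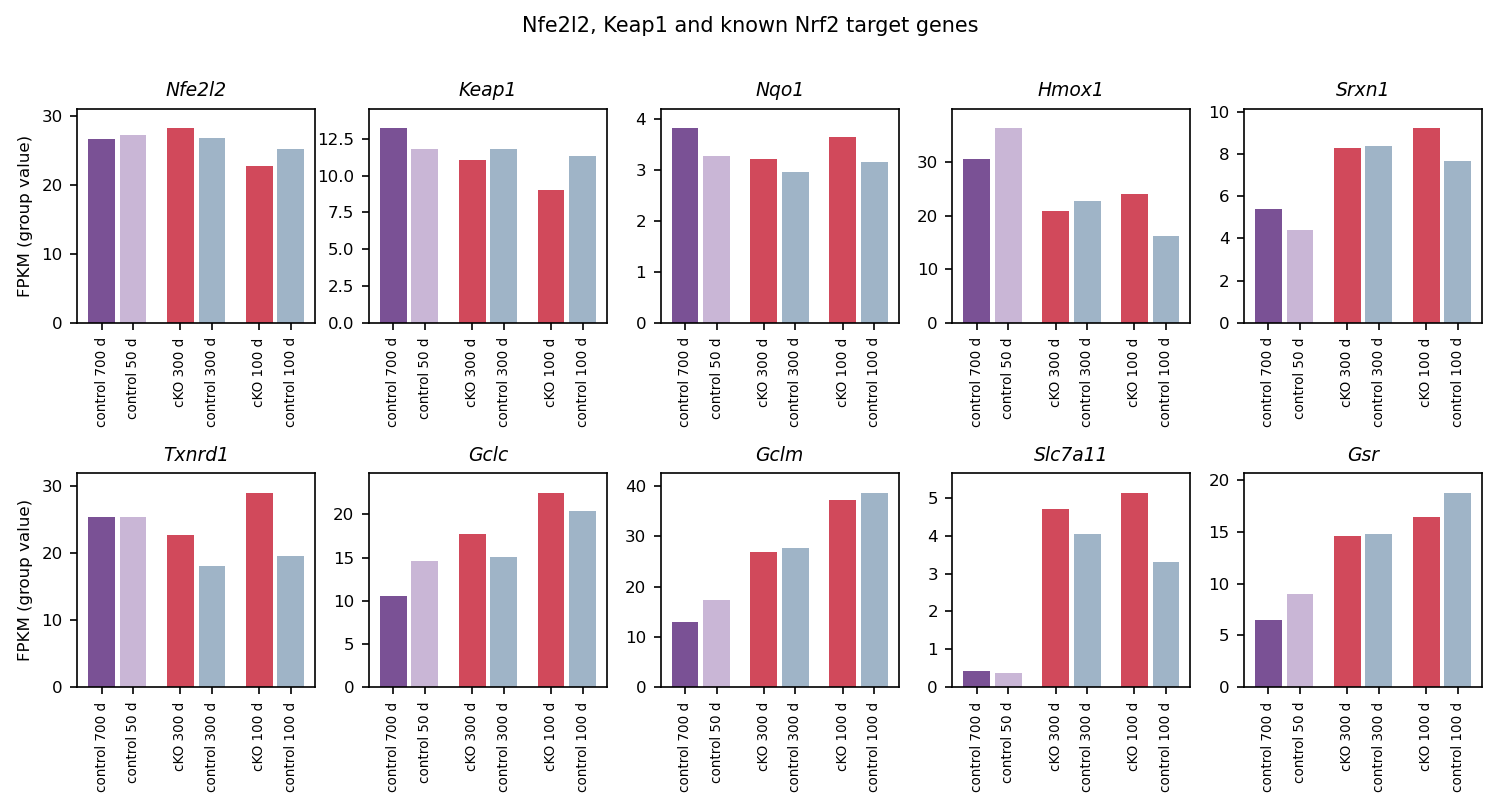
FPKM of Nfe2l2, Keap1 and 8 known Nrf2 targets in 700- and 50-day controls and in cKO and control skin at 300 and at 100 days; each bar is 1 group value and each panel has its own axis. No pair of bars compared here differs by a log2 ratio of size 1, the largest being 0.54 for Txnrd1 and for Hmox1 in cKO against control skin at 100 days.

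Both NADPH-making enzymes of the pentose phosphate pathway lay below 0 in cKO skin. Pgd, which makes the second NADPH of the pathway, had 35.8 FPKM in cKO skin and 81.0 FPKM in the controls at 100 days (log2 ratio -1.15, counted as lower) and 31.7 and 55.2 FPKM at 300 days (-0.78). In 700- and 50-day controls Pgd had 23.3 and 22.0 FPKM. G6pdx, which makes the first NADPH and lies on the X chromosome, had 72.6 and 84.4 FPKM in cKO skin and the controls at 100 days and 55.6 and 72.4 FPKM at 300 days, and was not counted. A share of 10.6% of its 75-base positions also occurs in other genes, mainly Ikbkg. Of 9 further NADPH sources, 3 were counted as lower in cKO skin at 300 days and 3 at 100 days, and none was counted as higher. The transketolase Tkt had 54.9 FPKM in cKO skin and 113 FPKM in the controls at 300 days and 59.3 and 179 FPKM at 100 days. Nnt, the transhydrogenase of mitochondria, had 3.40 and 8.77 FPKM in cKO skin and the controls at 300 days and 4.82 and 13.5 FPKM at 100 days. The folate enzyme Aldh1l1 was the third at 300 days (7.96 FPKM in cKO skin, 17.6 FPKM in the controls), and the malic enzyme Me1 was the third at 100 days (58.1 FPKM in cKO skin, 124 FPKM in the controls). None of the 9 was counted at 700 against 50 days. Beside these genes, adipocyte markers were lower in cKO skin at 100 days (2629 against 8265 FPKM), and so were markers of simple and glandular epithelium (48.0 against 479 FPKM). At 700 against 50 days the adipocyte markers (331 against 1153 FPKM) and the markers of simple and glandular epithelium (72.7 against 108 FPKM) were lower as well. The part of either cell type in these values was not tested.

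The glutathione transferases, which join glutathione to electrophiles, are 12 of the 47 members and held 5 of the 10 that reached the size in any comparison. The share of all genes that reached it in any comparison was not counted. In cKO against control skin 9 of 12 were below 0 at 300 days (median -0.37) and 10 of 12 at 100 days (median -0.41), against 6 of 12 at 700 against 50 days. Gstm2, of the cytosolic mu class, had 9.16 FPKM in cKO skin and 21.4 FPKM in the controls at 300 days (log2 ratio -1.14), and 9.76 and 25.6 FPKM at 100 days (-1.31). In 700- and 50-day controls Gstm2 had 12.1 and 10.9 FPKM (0.14). Its neighbours in the mu cluster on chromosome 3 differed less: Gstm1 had log2 ratios of -0.38 and -0.10, and Gstm5 of -0.41 and -0.49, in cKO skin at 300 and 100 days. Gstm1 was lower at 700 days, with 14.3 FPKM against 24.7 FPKM at 50 days (-0.75), while cKO and control skin had 22.6 and 29.6 FPKM at 300 days and 35.9 and 38.7 FPKM at 100 days. A share of 11.7% of the 75-base positions of Gstm1 also occurs in related genes, against 1.85% for Gstm2.

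Gstp1, of the pi class, was counted as lower in cKO skin at 300 days, with 1.84 FPKM against 5.44 FPKM in the controls (log2 ratio -1.18). At 100 days it had 4.86 FPKM in cKO skin and 6.92 FPKM in the controls (-0.43), and 700- and 50-day controls had 3.07 and 1.84 FPKM. Its value is uncertain, because 29.2% of its 75-base positions also occur in its near copy Gstp2. Gsta4, which conjugates the lipid peroxidation product 4-hydroxynonenal, was counted as lower at 100 days, with 4.01 FPKM in cKO skin and 10.4 FPKM in the controls (-1.19). At 300 days it had 7.75 FPKM in cKO skin and 8.15 FPKM in the controls (-0.06), and 700- and 50-day controls had 2.69 and 2.56 FPKM. Its relative Gsta3 lay above 0 at both ages, with 6.58 and 4.65 FPKM in cKO skin and the controls at 300 days (0.42) and 14.0 and 10.6 FPKM at 100 days (0.37). It had 1.66 and 2.24 FPKM in 700- and 50-day controls. Gsto1, which also reduces dehydroascorbate, was above 0 in all 3 comparisons, with 31.0 and 24.1 FPKM in 700- and 50-day controls, 24.8 and 18.3 FPKM in cKO skin and the controls at 300 days, and 28.2 and 22.0 FPKM at 100 days. Gstt1, of the theta class, had 4.72 FPKM in cKO skin and 9.58 FPKM in the controls at 300 days (-0.89), with 5.79 and 6.08 FPKM at 100 days and 2.08 and 2.31 FPKM in 700- and 50-day controls. Gstk1, the kappa enzyme of mitochondria and peroxisomes, had log2 ratios of 0.12, -0.35 and -0.66 at 700 days and in cKO skin at 300 and 100 days.

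The membrane-bound transferases differed in direction. Mgst1, the most abundant transferase here, had 164 FPKM in cKO skin and 242 FPKM in the controls at 300 days (log2 ratio -0.56), and 225 and 292 FPKM at 100 days (-0.38). It had 69.9 FPKM in 700-day controls and 92.8 FPKM in 50-day controls (-0.40). Mgst3 had 15.8 FPKM in 700-day controls and 30.1 FPKM in 50-day controls (-0.89), 43.7 and 56.8 FPKM in cKO skin and the controls at 300 days, and 46.8 and 55.8 FPKM at 100 days. Mgst2, which can also make leukotriene C4, was higher at 700 days, with 16.3 FPKM against 6.55 FPKM at 50 days (1.19). In cKO skin Mgst2 was above its control at 300 days (10.5 FPKM in cKO skin, 5.71 FPKM in the controls, 0.78) and below it at 100 days (5.83 FPKM in cKO skin, 8.56 FPKM in the controls, -0.48). Summed over the 12 transferases, cKO and control skin had 337 and 457 FPKM at 300 days and 422 and 539 FPKM at 100 days, while 700- and 50-day controls had 229 and 259 FPKM.

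**Figure D4:**
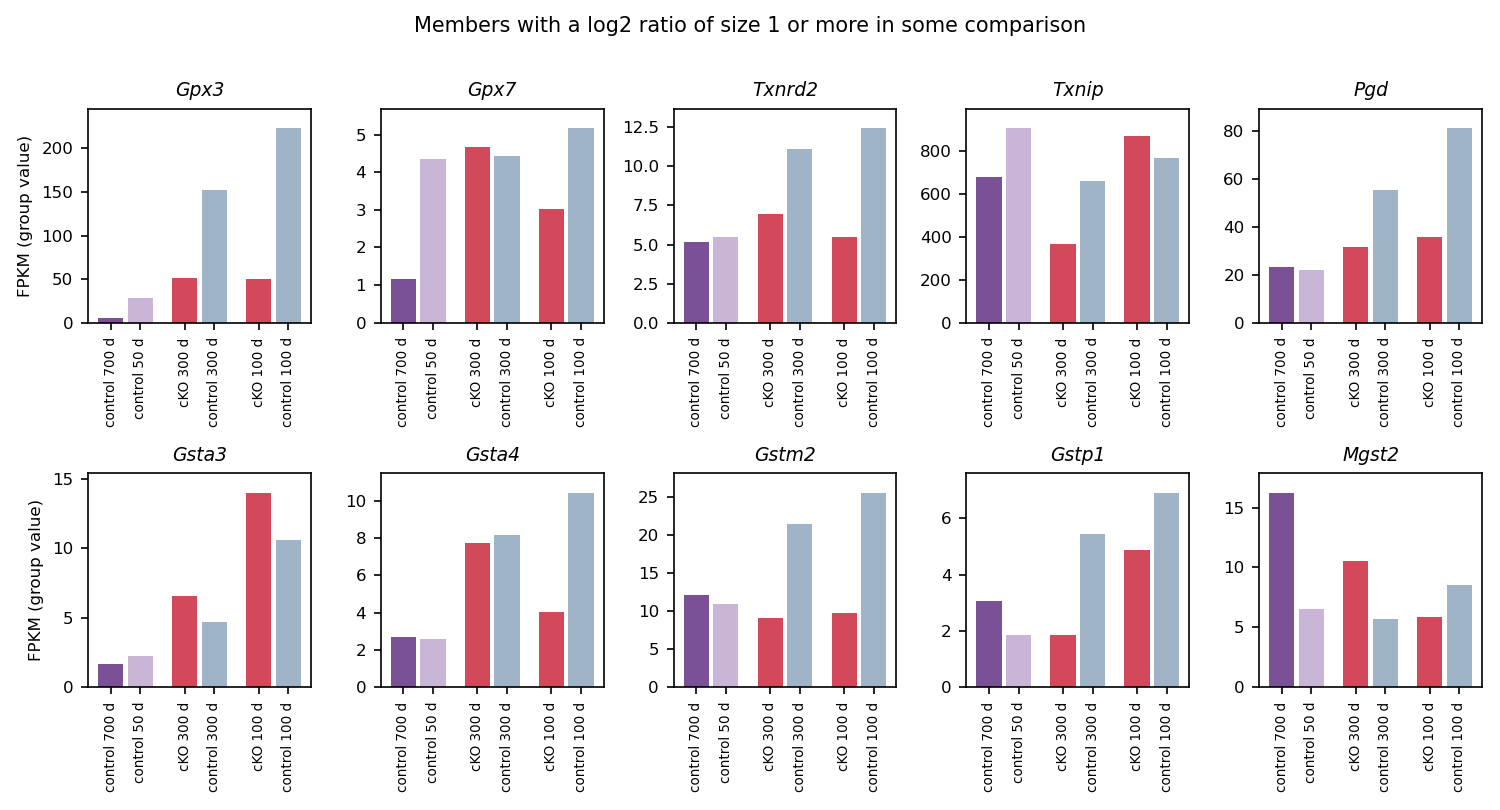
FPKM of the 10 members that differed by a log2 ratio of size 1 or more in some comparison, in 700- and 50-day controls and in cKO and control skin at 300 and at 100 days; each bar is 1 group value and each panel has its own axis. Gpx3 and Gstm2 are lower in cKO skin at both ages, while Txnip is lower at 300 days (369 against 662 FPKM) and higher at 100 days (874 against 771 FPKM).

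Set side by side, the genotype comparisons at the 2 ages differed by the size counted for 3 members. The difference of the log2 ratios, 300 days minus 100 days, was 1.27 for Mgst2 and 1.13 for Gsta4, the 2 members counted as higher (3.92% of all genes were), and -1.02 for Txnip, the 1 counted as lower (4.84% of all genes were). With TPM the value of Txnip was -0.91 and no member was counted as lower. Among all genes 493 were counted as higher and 608 as lower, against 730 higher and 573 lower with TPM. Gpx3 had a difference of 0.60, its control level being 152 FPKM at 300 days and 223 FPKM at 100 days while cKO skin had 51.8 and 50.1 FPKM.

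**Figure D5:**
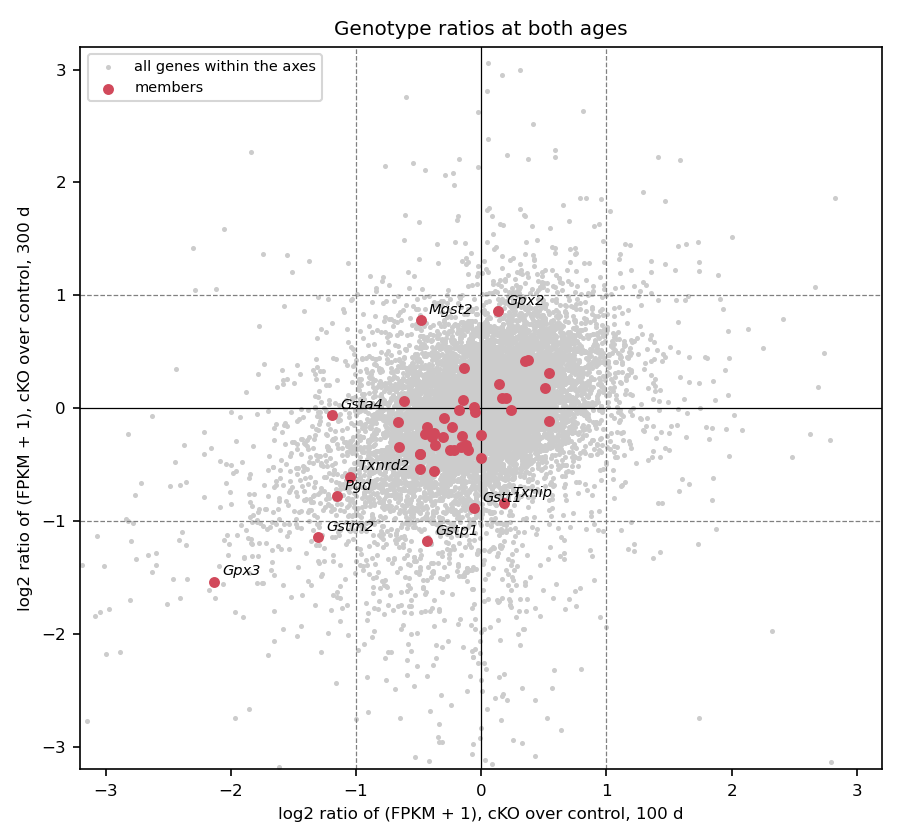
Log2 ratio of (FPKM + 1) in cKO over control skin at 100 days (horizontal) and at 300 days (vertical); red points are the 47 members, grey points all genes within the axes, and dashed lines mark a size of 1. Gpx3 lies at -2.13 and -1.54 and Gstm2 at -1.31 and -1.14, and no member lies above 1 on either axis.

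Within a genotype, 300-day skin was also set against 100-day skin; these comparisons use the same groups as those above. In control skin no member was counted as higher (3.52% of all genes) and 1 was counted as lower (1.07% of all genes), Gsta3, with 4.65 FPKM at 300 days and 10.6 FPKM at 100 days (log2 ratio -1.04). In cKO skin no member was counted as higher (2.5% of all genes) and 2 were counted as lower (1.51% of all genes). These were Txnip, with 369 FPKM at 300 days and 874 FPKM at 100 days (-1.24), and Gstp1, with 1.84 FPKM at 300 days and 4.86 FPKM at 100 days (-1.05). Gsta3 in cKO skin was just short of the size, with 6.58 FPKM at 300 days and 14.0 FPKM at 100 days (-0.98), and reached it with pseudocounts of 0.1 and 0.5 and with both rescalings. The median of the members was -0.22 in control skin (0.03 over all genes) and -0.14 in cKO skin (0.02 over all genes). In control skin TPM moved the median of all genes to -0.15, and the counts over all genes, 442 higher and 134 lower, to 389 higher and 250 lower. The corresponding counts in cKO against control skin at 100 days were 277 higher and 548 lower, and with TPM 247 higher and 829 lower.

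Other genes of the same biochemistry, from lists written for this tissue, were counted in small numbers. Of 7 further glutathione transferases with enough signal, Gstt2 alone was counted at 300 days, with 0.686 FPKM in cKO skin and 3.89 FPKM in the controls. Gstz1 alone was at 100 days, with 37.4 FPKM in cKO skin and 88.1 FPKM in the controls, and none was at 700 against 50 days. Of 14 genes of glutathione turnover and transport, Ggct, which breaks down gamma-glutamyl peptides, was counted as higher in cKO skin at 300 days (61.7 FPKM, against 28.3 FPKM in the controls). Ggt1, which cleaves glutathione outside the cell, was counted as lower at 700 days (1.36 FPKM, against 6.39 FPKM at 50 days), and none of the 14 was counted in cKO skin at 100 days. Of 18 further Nrf2 targets and partners, 1 was counted as higher and 2 as lower at each age in cKO skin, and none at 700 against 50 days. The ferritin subunit Ftl1 was the higher gene at 300 days (267 FPKM in cKO skin, 121 FPKM in the controls) and the aldehyde dehydrogenase Aldh3a1 at 100 days (13.4 FPKM in cKO skin, 5.67 FPKM in the controls). The lower genes were Tkt at both ages, the biliverdin reductase Blvrb at 300 days (16.3 FPKM in cKO skin, 34.6 FPKM in the controls) and Me1 at 100 days, Tkt and Me1 also being NADPH sources above.

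Of the other enzymes that remove superoxide and hydrogen peroxide, none was counted, but all lay below 0 in cKO skin at both ages. Sod1, the cytosolic superoxide dismutase, had 85.4 FPKM in cKO skin and 153 FPKM in the controls at 300 days (log2 ratio -0.83), and 88.2 and 169 FPKM at 100 days (-0.93). Catalase (Cat), of peroxisomes, had 66.1 and 95.0 FPKM in cKO skin and the controls at 300 days and 48.5 and 84.8 FPKM at 100 days. The secreted Sod3 had 2.32 and 5.36 FPKM at 300 days and 2.88 and 6.09 FPKM at 100 days in cKO and control skin. With Sod2, the 4 genes had median log2 ratios of -0.68 at 300 days and -0.83 at 100 days, against -0.01 and 0.02 over all genes.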

How the data were processed

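RNA of whole mouse skin was sequenced in 20 samples of 6 groups, as single reads of 75 bases. HISAT2, Cufflinks and Cuffdiff were used against mm10, per the submitters' processing notes; versions, gene annotation and how samples of a group were combined are not given in the sources used here. As deposited by the authors, the values are FPKM, 1 column per group and 46744 rows, with no value per sample; read depth is unknown, so no error, interval or floor is given.

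Named genes were rows with 1 named symbol, without predicted genes, Rik, LOC, small RNA and pseudogene names (19746, 98.4% of them in GENCODE M21). Log2 ratios of (FPKM + 1) were taken for the 12561 genes that averaged 1 FPKM or more and counted at a size of at least 1, in 6 comparisons. Members and lists were chosen with earlier results of these data known. Values in all groups are given for members that reached the size in any comparison, the 5 highest and 5 lowest in each of the first 3 and the 5 of highest mean; of each list, up to 4 members that reached it. Gene positions, overlaps and shared 75-base positions come from GENCODE M21, and promoters from RefSeq (GRCm38.p6). Not every overlapping gene or marker is reported here. The counting was tested on a simulated table, for cKO against control skin at 300 days only. The alternatives tried were a pseudocount of 0.1 or 0.5, a filter at 5 FPKM or none, a common median, equal totals (TPM), a size of 1.5-fold, summed rows and rows with several symbols left out. Python 3.11.15, pandas 2.3.3, numpy 2.4.6 and matplotlib 3.10.9 were used.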

Additional observations from a re-analysis of the deposited data

Results flagged for a closer look

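Txnip and Mgst2 lay on opposite sides of their controls at the 2 ages, by a difference of at least 1 on the log2 scale. Txnip had log2 ratios of -0.84 at 300 days and 0.18 at 100 days in cKO against control skin, a difference of -1.02. Mgst2 had log2 ratios of 0.78 at 300 days and -0.48 at 100 days, a difference of 1.27. With 1 value per group, neither difference was tested. Under the alternatives Txnip ranged between -1.02 and -0.91, and Mgst2 between 1.27 and 1.42. Several marker lists also differed between the ages. All 10 lymphocyte markers were lower in cKO against control skin at 300 days (summed 23.1 against 396 FPKM) and 1 of 10 was at 100 days (14.2 against 16.6 FPKM). In the difference between ages, 7 of 12 hair shaft and root sheath markers were counted as lower. Counted as higher were 6 of 10 fibroblast, 6 of 10 simple and glandular epithelium and 5 of 13 skeletal muscle markers. So were 4 of 11 differentiated keratinocyte markers and 4 of 9 stress keratinocyte markers, while 2 of these 9 were counted as lower. The part of any of these in the Txnip and Mgst2 differences was not tested.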

How the results depend on the processing

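No replicate could be left out and no paired analysis was possible because the table has 1 value per group. Of the 108 counts of members under an alternative, 93 stayed within 1.5 times the main count and 15 did not. The main counts are small, from 0 to 5. With a pseudocount of 0.1, 1 member (Gpx2) was higher in cKO skin at 300 days, against 0, and 2 members (Txnip and Gstp1) were lower in the difference between ages, against 1. With a mean of at least 5 FPKM, which leaves 41 members, 1 was lower at 700 days and 1 was lower in cKO skin at 300 against 100 days, against 2 in each. With TPM, 2 (Mgst2 and Glrx) were higher at 700 days, against 1, and 0 were lower in the difference between ages. At a size of 1.5-fold, 2 of the 47 members were higher and 4 lower at 700 days, against 257 and 1105 of the 12561 genes. In cKO skin at 300 days 2 members were higher and 7 lower, against 982 and 1537 of all genes. At 100 days 8 were lower in cKO skin, against 1517 of all genes. In cKO skin at 300 against 100 days 3 were higher and 5 lower, against 1077 and 728 of all genes. In the difference 5 were higher and 4 lower, against 1486 and 1650 of all genes. Over all genes, a pseudocount of 0.1 gave 144 higher and 793 lower at 700 days (main 76 and 413), 396 higher in cKO skin at 300 days (main 243) and 483 higher and 843 lower at 100 days (main 277 and 548). A mean of at least 5 FPKM gave 305 lower in cKO skin at 300 days (main 656), and 183 higher and 357 lower at 100 days. TPM gave 123 higher at 700 days and 829 lower in cKO skin at 100 days. Of the member ratios in the first 3 comparisons, 10 changed sign with the scaling, all within 0.13 of 0. Depth is unknown, so what it limits could not be given.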

Other observations

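In further lists of thiol and metal biology few genes were counted. Of the 7 genes of selenoprotein synthesis, which the selenium-dependent peroxidases and thioredoxin reductases need, none was counted, with median log2 ratios of -0.04 at 700 against 50 days, -0.20 in cKO against control skin at 300 days and -0.24 at 100 days. Of 12 thioredoxin-fold proteins and methionine sulfoxide reductases, only Msrb2, a mitochondrial reductase of oxidised methionine, was counted in the first 3 comparisons. It had 1.45 FPKM in 700-day controls and 4.46 FPKM in 50-day controls, 4.39 and 10.7 FPKM in cKO skin and the controls at 300 days, and 3.51 and 7.19 FPKM at 100 days, where it was not counted. Of 6 genes of transsulfuration and the methionine cycle, only Gnmt, which uses up S-adenosylmethionine, was counted, with 0.596 FPKM against 3.74 FPKM in 700- against 50-day controls and 3.46 FPKM in cKO skin against 11.4 FPKM in the controls at 100 days. Cbs was just short of the size in cKO against control skin at 300 days (log2 ratio 0.93) and had 0.79 at 100 days. The median of the 6 genes was 0.07 and 0.10 in these comparisons.

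None of 3 metallothioneins, which bind zinc and copper through their cysteines, was counted in the first 3 comparisons. Mt1 had 94.7 FPKM in cKO skin and 107 FPKM in the controls at 300 days, and 160.0 and 154 FPKM at 100 days. Mt2 had 121 and 111 FPKM in cKO skin and the controls at 300 days and 158 and 168 FPKM at 100 days.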
